A study of Homo sapiens with 4 samples.

Results

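A set of 9 genes of the osteoblast lineage and its matrix were compared in the human osteosarcoma line U2OS between cells labelled as GREM1 knockdown (shGREM1) and control cells (shControl). They are the rows of the deposited gene count table for RUNX2, SP7, DLX5, ALPL, SPARC, SPP1, PTH1R, MSX1 and MSX2, which makes 9 of 58735 genes. Each group holds 2 RNA-seq libraries, and both groups are the same cell line with no other treatment, dose or time in the labels. Gremlin 1, the product of GREM1, is secreted and blocks bone morphogenetic proteins, which drive bone formation. The sources used here give neither hairpin sequences nor whether a line is a pool or 1 clone. Whether the 2 libraries of a group are separate cultures is not stated, so every p-value rests on a spread that may be purely technical.

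Osteoblasts arise from mesenchymal progenitors. RUNX2 is the transcription factor that commits cells to the lineage, SP7 (osterix) acts downstream of it, and the homeodomain factors DLX5, MSX1 and MSX2 act around them, with MSX proteins acting mostly as repressors. Committed cells make alkaline phosphatase (ALPL), which frees phosphate for mineral, lay down the matrix proteins SPARC (osteonectin) and SPP1 (osteopontin), and carry the parathyroid hormone receptor PTH1R. Osteosarcoma cells keep parts of this program to differing degrees.

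The 4 libraries held between 15492826 and 16353015 counts each. GREM1 itself had 2 and 0 counts in the controls and 1 in each shGREM1 library, so the knockdown could not be checked, and the groups are used as they are labelled. Of 18442 genes tested by edgeR's quasi-likelihood test, 7.69% passed at a Benjamini-Hochberg adjusted p under 0.05, with 3.57% higher and 4.12% lower in shGREM1. In these bulk cultures, fewer cells of a type and less RNA per cell cannot be told apart.

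Among the 9 genes, those for the matrix proteins SPARC and SPP1 rose in shGREM1 and the transcription factor gene MSX1 fell. SPARC, the most abundant of them, rose 1.43-fold, SPP1 rose 2.75-fold from a low level, and MSX1 fell to 0.65 of its control level. ALPL was lower in both shGREM1 libraries than in both controls but did not pass, and RUNX2, MSX2 and PTH1R did not pass either. SP7 and DLX5 were too sparse to be tested. In all, 7 of the 9 genes were kept by the filter on low counts, and 2 of these rose, 1 fell and 4 did not pass, beside 3.57% and 4.12% over all tested genes. The groups did not overlap in CPM for 5 of the 7, beside 53.6% of all tested genes, a share that is not far from theirs.

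The start regions of the genes were read for motifs of the families that the factors named above belong to. RefSeq promoter windows on GRCh38.p14, each with 250 bases before and 50 after a start site, were found for 7 of the 9 genes, in 11 windows. The RUNX motif AACCACA was searched on both strands, as were TAATTG, a motif of MSX and DLX homeodomains, and the GC box GGGCGG, a motif of the SP family. No match overlapped another in these windows. The stretches below lie before the start site and outside every GENCODE 29 exon, on the plus strand, and capitals mark motif matches. SPP1 (chr4:87975464-87975649) and MSX1 (chr4:4859415-4859664) are shown because they passed, and ALPL (chr1:21509173-21509371, 1 of its 3 RefSeq starts) because it was the lowest of the others in shGREM1 relative to shControl.
SPP1: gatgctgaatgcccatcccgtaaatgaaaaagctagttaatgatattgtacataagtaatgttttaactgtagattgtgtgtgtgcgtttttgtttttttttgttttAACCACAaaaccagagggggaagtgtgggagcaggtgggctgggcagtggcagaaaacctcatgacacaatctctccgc
MSX1: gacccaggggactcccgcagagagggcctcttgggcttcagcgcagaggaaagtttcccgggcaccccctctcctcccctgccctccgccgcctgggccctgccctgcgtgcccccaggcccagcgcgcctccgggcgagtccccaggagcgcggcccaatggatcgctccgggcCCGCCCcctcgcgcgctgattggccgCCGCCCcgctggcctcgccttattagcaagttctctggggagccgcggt
ALPL: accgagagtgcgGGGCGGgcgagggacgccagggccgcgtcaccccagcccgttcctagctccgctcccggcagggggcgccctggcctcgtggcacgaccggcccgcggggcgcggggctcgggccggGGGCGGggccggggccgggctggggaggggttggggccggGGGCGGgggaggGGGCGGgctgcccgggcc
SPP1 held 1 RUNX match, whose first letter lies 143 bases before its start, and no GC box. MSX1 held 2 GC boxes, 75 and 49 bases before its start, and the ALPL window shown held 4, the nearest 69 bases before it. The other ALPL windows held no GC box, and PTH1R, which did not pass, held 5 in its window at 46882249. The RUNX motif was in 4.27% of 35116 windows of 300 bases, the GC box in 45.0% and TAATTG in 7.38%. Of the same windows, 26.7% held 2 or more GC boxes. RUNX2 held 3 RUNX matches in its window on chromosome 6 at 45328330, 88 bases before the start and 15 and 23 bases after it. Its window at 45422275 held none. Of all windows, 0.148% held 2 or more RUNX matches. TAATTG was in none of the 11 windows. The whole SPARC window before the start lies inside annotated exons, held none of the 3 motifs and is not shown. A match is a description of the letters, and binding was not measured.

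SPARC (ENSG00000113140, chromosome 5, 151661096 to 151687165, minus strand, GRCh38) encodes a collagen- and calcium-binding glycoprotein of bone matrix. Its level in CPM (counts per 1000000 counts of the library, after scaling) was 867 and 874 in the controls. The first shGREM1 library had 1362 CPM and the other 1125 CPM. The control libraries were almost the same, both shGREM1 libraries lay above them, and shGREM1-1 was the higher. That is a log2 fold change of 0.51 ± 0.12 (SE), with a 95% interval of 0.26 to 0.77 (edgeR adjusted p = 0.0155). SPARC alone took 0.0856% and 0.0873% of all counts in shControl and 0.137% and 0.114% in shGREM1. Leaving out shControl-1 gave a log2 fold change of 0.50 and leaving out shControl-2 gave 0.52, but SPARC then missed the threshold (edgeR adjusted p = 0.165 and 0.126).

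SPP1 (ENSG00000118785, chromosome 4, 87975650 to 87983426, plus strand) encodes a secreted, acidic phosphoprotein that binds mineral and integrins. The controls stood at 2.65 and 1.55 CPM (41 and 24 counts) and the shGREM1 libraries at 6.88 and 4.71 CPM (113 and 76 counts). The groups did not overlap, and shControl-2 was the lowest library. SPP1 rose by 1.46 ± 0.34 (SE) on the log2 scale, the largest error of the 3 that passed, with a 95% interval of 0.74 to 2.18 (edgeR adjusted p = 0.0164). Without shControl-2 it was 1.12 and did not pass (edgeR adjusted p = 0.102).

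ALPL (ENSG00000162551, chromosome 1, 21509372 to 21578412, plus strand) encodes the tissue-nonspecific alkaline phosphatase that hydrolyses pyrophosphate at sites of mineralization. Control libraries gave 13.5 and 8.66 CPM, and shGREM1 libraries 3.89 and 7.32 CPM. The lowest control library and the highest shGREM1 library were close, and the libraries of each group differed widely. Its log2 fold change was -0.98 ± 0.31 (SE), with an unadjusted 95% interval of -1.68 to -0.29 (edgeR adjusted p = 0.0888). It did pass when no filter on counts was used (edgeR adjusted p = 0.00113), and when shControl-2 (0.026) or shGREM1-2 (1.62e-05) was left out. Its value was -0.63 without shControl-1 (edgeR adjusted p = 0.435) and -1.27 without shControl-2. It was -0.60 without shGREM1-1 and -1.51 without shGREM1-2, so its size moved with the libraries kept in either group.

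**Figure D1:**
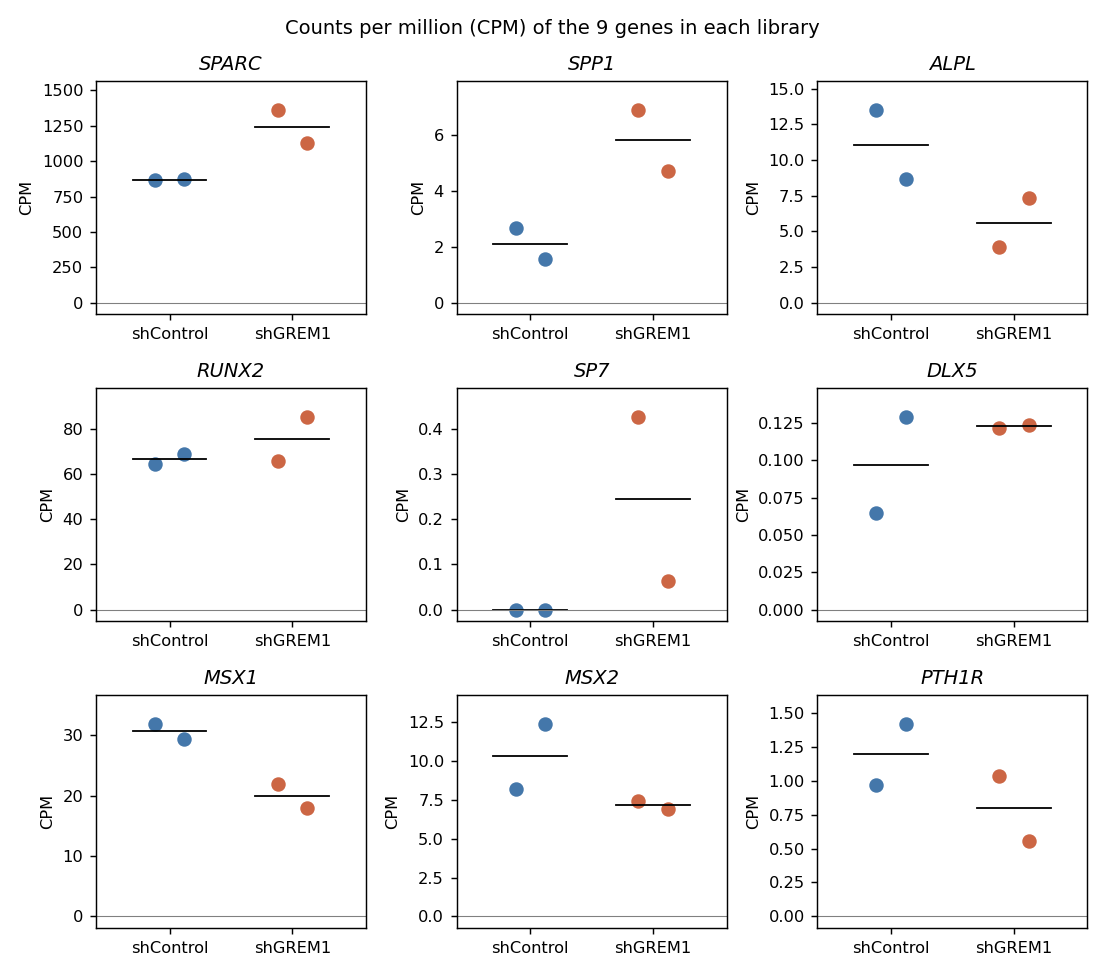
Each panel plots 1 gene in CPM on a linear axis, with 1 point per library, shControl left and shGREM1 right, and a line at the mean of each group. SPARC and SPP1 are higher in both shGREM1 libraries, MSX1 lower in both, and SP7 and DLX5 stay below 0.5 CPM in every library.

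RUNX2 (ENSG00000124813, chromosome 6, 45328157 to 45664349, plus strand), the master regulator of the lineage, was present in all libraries without a detected difference. Levels were 64.7 and 68.7 CPM in the controls, and 65.7 and 85.4 CPM in the shGREM1 libraries. Only shGREM1-2 stood above the controls, and shGREM1-1 lay between them. A log2 fold change of 0.18 ± 0.13 (SE) had a 95% interval of -0.10 to 0.46 (edgeR adjusted p = 0.447). CBFB, the partner subunit that RUNX proteins need to bind DNA well, did not pass, at 1549 and 1498 counts in the controls against 1061 and 1387 (log2 fold change -0.39, edgeR adjusted p = 0.0888).

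SP7 (ENSG00000170374, chromosome 12, 53326575 to 53345315, minus strand) and DLX5 (ENSG00000105880, chromosome 7, 97020392 to 97024950, minus strand) were close to undetected. SP7 had 0 counts in both shControl libraries, where a set floor of 3 counts equals 0.194 CPM in each, and 7 and 1 counts in shGREM1. Exact 95% Poisson intervals, for counting error alone, ran from 2.81 to 14.4 counts in shGREM1-1 and from 0.0253 to 5.57 in shGREM1-2. Summed over the libraries and scaled, the 8 SP7 counts of shGREM1 were 2.53 times a floor of 3 counts over the shControl group. That ratio takes the 8 counts as exact, so it is not a lower bound on a rise, and 7 of the 8 came from 1 library. Fitted without the filter on low counts, SP7 did not pass (edgeR adjusted p = 0.342). DLX5 had 1 count in shControl-1 and 2 in each other library, and no fold change is given.

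MSX1 (ENSG00000163132, chromosome 4, 4859666 to 4863936, plus strand), a homeodomain repressor of craniofacial and limb mesenchyme, stood at 31.9 and 29.3 CPM in the controls, and at 21.9 and 17.9 CPM in the shGREM1 libraries. The groups did not overlap, and the libraries of each group lay close together. MSX1 had a log2 fold change of -0.62 ± 0.15 (SE), with a 95% interval of -0.94 to -0.30 (edgeR adjusted p = 0.0193). The call was lost when shControl-1 (edgeR adjusted p = 0.122) or shGREM1-2 (0.0569) was left out.

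Its paralog MSX2 (ENSG00000120149, chromosome 5, 174724533 to 174730893, plus strand), known for its role in skull growth, stood at 8.21 and 12.4 CPM in the controls, and at 7.42 and 6.89 CPM in the shGREM1 libraries. All shGREM1 values lay below the controls, but shControl-1 was nearer to them than to shControl-2. The log2 fold change of -0.53 ± 0.23 (SE) did not pass (95% interval -1.03 to -0.03, edgeR adjusted p = 0.189), and without shControl-2 it was -0.20. PTH1R (ENSG00000160801, chromosome 3, 46877746 to 46903799, plus strand), the receptor for parathyroid hormone and its related peptide, had 15 and 22 counts in the controls, and 17 and 9 in the shGREM1 libraries. The groups overlapped, and the log2 fold change of -0.58 had a 95% interval from -1.75 to 0.59 (edgeR adjusted p = 0.577), so a difference was not detectable at this depth.

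**Figure D2:**
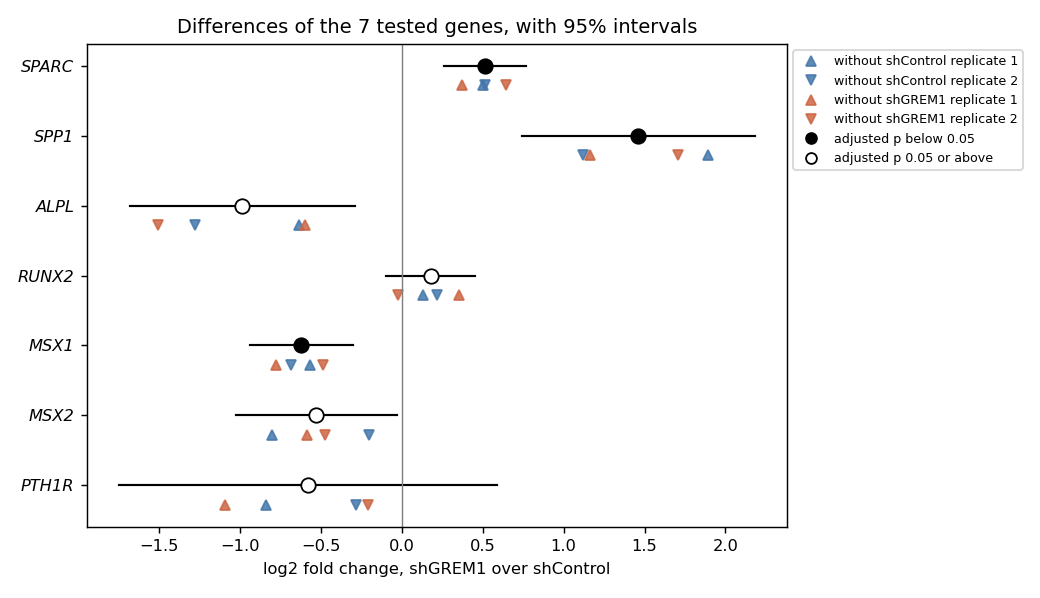
Circles give the log2 fold change of each tested gene with its 95% interval (filled where the adjusted p is below 0.05), and triangles give the value when 1 library is left out. SPARC, SPP1 and MSX1 keep their side of 0 in each such fit, while RUNX2 lies at -0.02 without shGREM1-2.

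Per kilobase of exon, the genes spanned more than 3 powers of 10. In shControl, SPARC stood at 180 ± 1.01 CPM per kb (SD, n = 2), followed by MSX1 at 14.5 ± 0.862, RUNX2 at 8.14 ± 0.346, MSX2 at 4.54 ± 1.31 and ALPL at 3.69 ± 1.14. SPP1 (0.905 ± 0.335), PTH1R (0.434 ± 0.116) and DLX5 (0.0555 ± 0.0261) came next in CPM per kb, and SP7 had no counts. MSX2 and ALPL overlapped in the control libraries, and the other neighbours in this order did not. In shGREM1, SPARC was at 257 ± 34.6 CPM per kb, MSX1 (9.39 ± 1.33) overlapped RUNX2 (9.22 ± 1.70), and SPP1 (2.50 ± 0.659) overlapped ALPL (1.86 ± 0.805). The ratio of SPP1 to ALPL per kb was 0.254 and 0.232 in shControl and 2.29 and 0.834 in shGREM1. The ratio of MSX1 to RUNX2 per kb was 1.91 and 1.65 in shControl and 1.29 and 0.811 in shGREM1. Both ratios were apart between the groups in every library, and neither was tested on its own.

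**Figure D3:**
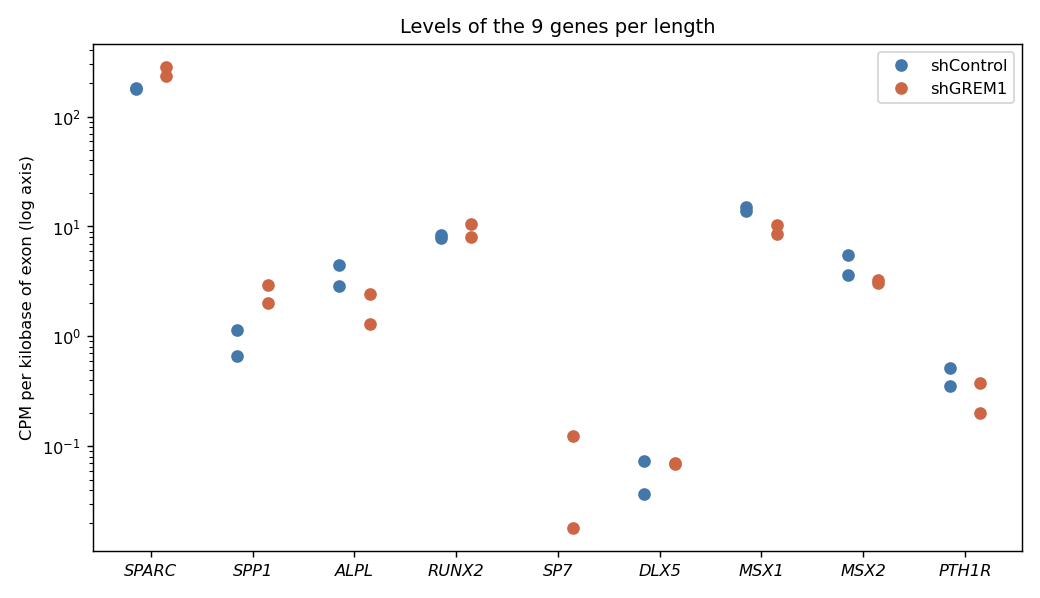
Points give each library's level in CPM per kilobase of exon on a log axis, shControl and shGREM1 side by side; SP7 had 0 counts in both shControl libraries, which a log axis cannot show. SPARC lies above 179 in every library, and PTH1R, DLX5 and SP7 lie below 0.6.

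Overlapping annotations took few reads. SPARC shares 381 exon bases with the antisense gene CLMAT3, which had 2 to 7 counts per library. RUNX2 overlaps 3 genes on the other strand with no shared exon bases, of which AL096865.1 had 83 to 113 counts, and PTH1R overlaps MYL3 with 3 to 9 counts. Without a known strand setting, reads from the exon bases that SPARC and CLMAT3 share cannot be told apart. PTH1R and MYL3 share no exon bases. The other 6 genes overlap no annotated gene.

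The genes whose pattern over the 4 libraries came closest differed for each gene that passed. Likeness was the root mean square difference in log2 CPM, centred on each gene's mean, among protein-coding genes with at least 10 CPM. For SPARC the closest were NEIL3 (0.00841), TNS3 (0.0208) and MYO18A (0.0261). For MSX1 PLK2 (0.0255) and SRM (0.0321) were among the 3 closest, and SPP1 had no close match, with MMP24 (0.226), ALPP (0.227) and PLCE1 (0.235) nearest. These distances describe 4 libraries only.

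The other bone matrix genes showed 3 rises and no falls among 10 tested of 17 listed, beside 3.57% higher and 4.12% lower over all genes. COL1A1, the main chain of bone collagen, stood at 613 and 576 CPM in the controls against 762 and 924 CPM (log2 fold change 0.50 ± 0.12 (SE), edgeR adjusted p = 0.0172). COL5A1, a chain of the collagen that starts type I fibrils, rose by 0.51 on the log2 scale, and LUM, a fibril-binding proteoglycan, by 0.64. At an unadjusted p under 0.05, and by DESeq2, the count of this list was also 3. Its median log2 fold change was 0.38, against 0.0049 over all tested genes, and 8 of the 10 tested lay above 0. Summed over the 17 listed genes, shControl had 3143 and 2845 CPM and shGREM1 had 2967 and 3702 CPM. These sums overlapped between the groups. Of all 18442 tested genes, DESeq2 called 513 higher and 607 lower. No share over all genes is given for the unadjusted cutoff. Counts at that cutoff, here and in the lists below, are therefore not read as a result. Leaving out shControl-1 or shControl-2 ended the call of COL1A1 (edgeR adjusted p = 0.0996 and 0.166), and leaving out shControl-2 that of COL5A1 (0.241). The late markers of mineralizing cells were near 0: BGLAP (osteocalcin) had 3 to 6 counts per library, IBSP (bone sialoprotein) 1, 0, 0 and 0, and DMP1 0, 1, 0 and 0. Of the defining osteoblast genes, RUNX2, ALPL, SPARC and COL1A1 were thus well detected, while SP7, DLX5, BGLAP, IBSP and COL1A2 had few or no counts.

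Collagen-processing genes went both ways. Of 11 tested, P3H1 (log2 fold change 0.50), a prolyl hydroxylase, and PLOD1 (0.40), a lysyl hydroxylase of the collagen helix, rose, and PLOD2 (-0.53), the lysyl hydroxylase of the collagen ends, fell (edgeR adjusted p = 0.00907, 0.0442 and 0.025), beside 3.57% higher and 4.12% lower over all genes. The median was 0.05, and the count was 5 at an unadjusted p under 0.05 and 3 by DESeq2. All 3 missed the threshold without shControl-1 and without shControl-2, with edgeR adjusted p from 0.0659 to 0.359, and PLOD1 and PLOD2 also without shGREM1-2 (0.0686 and 0.0761). PLOD1 also missed it without robust estimation (0.0607).

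None of 8 tested mineralization genes passed edgeR's test, beside 7.69% of all tested genes, and their median log2 fold change was 0.09. PHOSPHO1, a phosphatase that acts beside ALPL in matrix vesicles, gave 96 and 103 counts in the controls against 70 and 43 (log2 fold change -0.89, edgeR adjusted p = 0.0755). PHEX, an endopeptidase of bone cells, went the other way, with 8 and 13 counts in the controls against 24 and 28 (log2 fold change 1.23, edgeR adjusted p = 0.165). At an unadjusted p under 0.05 the count was 2 of 8, and DESeq2 called 0 of them at an adjusted p under 0.05. Of 9 tested receptor and coupling genes, the WNT co-receptor gene LRP5 rose (log2 fold change 0.48) and the osteoclast growth factor gene CSF1 fell (-1.23), beside 3.57% higher and 4.12% lower over all genes. The median was 0.10, and the count was 3 at an unadjusted p under 0.05 and 2 by DESeq2. CSF1 stood at 104 and 109 CPM in the controls against 49.8 and 41.0 CPM (edgeR adjusted p = 2.69e-05). LRP5 missed the threshold without shControl-1 (edgeR adjusted p = 0.0929), without shControl-2 (0.102) and without shGREM1-2 (0.115).

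None of 9 tested transcription factor genes of the lineage passed edgeR's test, beside 7.69% of all tested genes. Of the 9, 8 lay below 0 (median log2 fold change -0.20), while 9337 of all 18442 tested genes lay above 0 (median 0.0049). The count at an unadjusted p under 0.05 was 2, and DESeq2 called 0. TWIST1, which restrains RUNX2, had at most 1 count in a library, and DLX6, the neighbour of DLX5, had none.

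**Figure D4:**
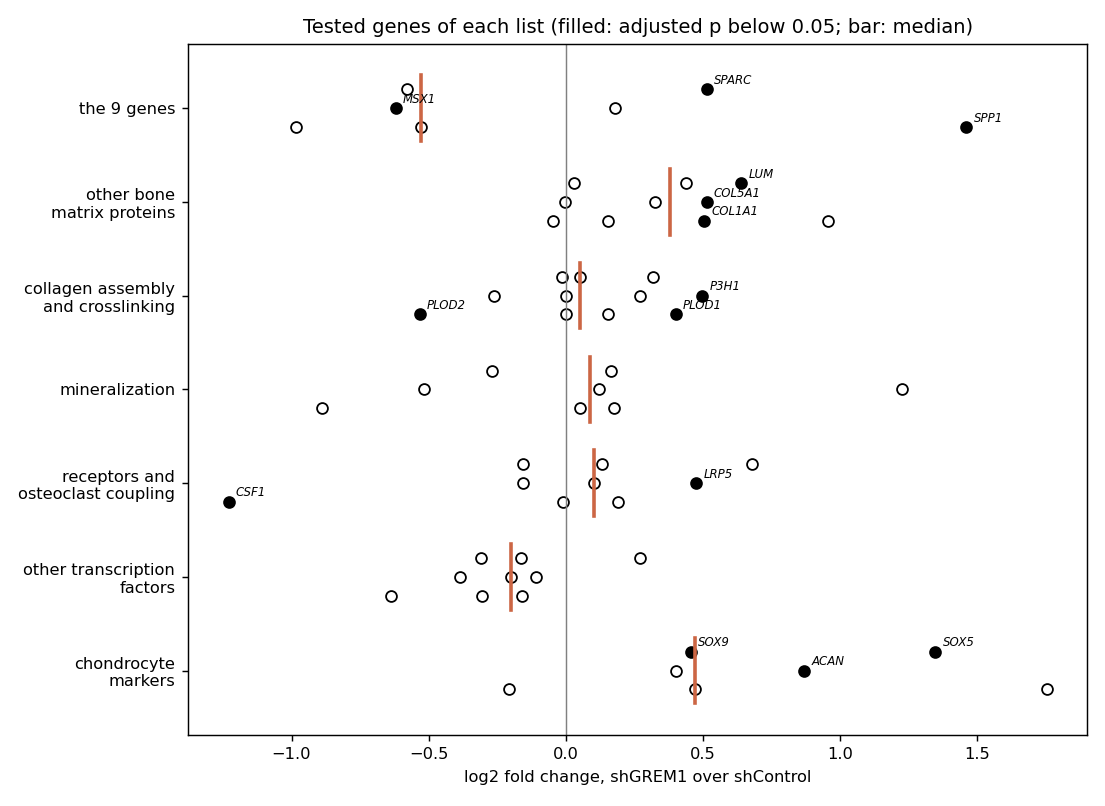
Each circle is the log2 fold change of 1 tested gene, filled where the adjusted p is below 0.05, and the bar is the list's median. The bone matrix list has its 3 filled points right of 0, and none of the mineralization or transcription factor points is filled.

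Markers of neighbouring lineages were read in the same fit. Of 9 chondrocyte markers 7 were tested and 3 rose, namely SOX5 (log2 fold change 1.35), ACAN (0.87) and SOX9 (0.46), beside 3.57% higher over all genes. At an unadjusted p under 0.05 the count was 6 of 7, and DESeq2 called 3. The list had a summed level of 435 to 472 CPM in shControl and 606 to 641 CPM in shGREM1. Most of this sum was SOX9 (213 and 251 CPM in the controls against 283 and 354) and COL11A1 (151 and 144 CPM against 222 and 169). COL11A1 did not pass (edgeR adjusted p = 0.0689). COL2A1, the defining cartilage collagen, had 6 and 2 counts in the controls against 16 and 13, and COL9A1 had 0, 0, 3 and 3. Other members lay lower in shGREM1: COL10A1, the collagen of hypertrophic cartilage, had 5 and 10 counts against 1 and 3 and was not tested, and MATN3 had a log2 fold change of -0.21 that missed the threshold (edgeR adjusted p = 0.494). The summed chondrocyte level thus moved in the same direction as SPARC and SPP1, and its part in their rise was not tested. SOX9 missed the threshold without shControl-1 (edgeR adjusted p = 0.357), without shGREM1-2 (0.119), with limma-voom (0.0528) and without robust estimation (0.0589). None of 6 muscle markers had enough counts. Of the adipocyte (3 of 7 tested), osteoclast (3 of 7), leukocyte (2 of 7) and endothelial (4 of 5) markers, none passed by edgeR. Over all tested genes 7.69% passed. At an unadjusted edgeR p under 0.05 the counts of these marker lists were 2, 1, 0 and 0, and DESeq2 called 0 of each. Summed leukocyte markers stayed between 1.61 and 3.75 CPM.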

How the data were processed

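Per the labels' protocols, SMARTER mRNA-Seq libraries were made from 1.3 ug of total RNA (Qiagen RNeasy kit). The deposited values are raw counts, made by the authors with a counting program that the sources used here do not name. HISAT2 2.0.5, StringTie 1.3.3b and DESeq2 are named with no role, per the submitters' processing notes, as is the mouse build mm10, but all 58735 genes matched GENCODE 29 (human, GRCh38) in identifier, position, strand and symbol. A strand setting is not given. Column names are abbreviated, and NC1 and NC2 were taken for the shControl libraries, SHG11 and SHG12 for those of shGREM1.

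Low genes were removed by filterByExpr (minimum count 10, minimum total 15), and 18442 were tested with edgeR 4.0.16 in R 4.3.3, with TMM scaling, group as the only term, robust estimation and adjustment over all kept genes. The SE and its interval follow from the F statistic. CPM here means total counts scaled by TMM factors, and CPM per kb uses the gene length in the deposited table, which for all 9 genes equals the union of GENCODE exons. The fit was tested on simulated data. Alternatives were other scalings, filters and tests (DESeq2 1.42.0, limma-voom 3.58.1), a replicate block and leaving out each library, where all residual spread is that of the intact group. The 9 genes, the gene lists and the tests were chosen with earlier results of these data known. Named genes were the 9, list members that passed (at most 4 per direction), COL1A1, COL1A2, BGLAP, IBSP, GREM1, overlapping genes and the 3 closest patterns of each of the 9 that passed. Values of 2 genes that this rule or a list holds are not reported here. Others, and the relatives under the closing observations, were named after their values were seen. Promoter sequences are RefSeq's (GRCh38.p14).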

Additional observations from a re-analysis of the deposited data

How the results depend on the processing

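Depth limits SP7, DLX5 and PTH1R most, and with 2 libraries per group the spread is mostly borrowed from other genes. SPARC, SPP1, MSX1, ALPL, MSX2 and PTH1R kept their direction under every alternative that tested them, with log2 fold changes of 0.37 to 0.65, 1.12 to 1.89, -0.77 to -0.48, -1.51 to -0.60, -0.80 to -0.20 and -1.09 to -0.21. RUNX2 ran from -0.022 without shGREM1-2, where its direction reversed, to 0.357 without shGREM1-1. Of the 9 genes, 2 rose and 1 fell in the fit reported. Without a count filter 2 fell, and with a mean CPM filter of 5, which removes SPP1, 1 rose. Over fits without 1 library, 0 to 2 rose and 0 to 2 fell. Among the other osteoblast genes, 6 rose and 2 fell, against 5 that fell without a count filter, and 1 to 8 rose and 1 to 4 fell without 1 library. Over all genes, 659 rose and 759 fell, against 1142 that fell without a count filter, and 266 to 998 rose and 382 to 1112 fell without 1 library. The reported fit tested 18442 genes, and the fit without a count filter tested 35699. The other osteoblast genes are the bone matrix, collagen-processing, mineralization, receptor and transcription factor lists, with 10, 11, 8, 9 and 9 tested. The balance over all genes was 793 higher and 631 lower with upper-quartile scaling. DESeq2 gave no adjusted p for PTH1R, COL1A2 and ABCG2. The cause of these shifts was not tested, apart from the fewer samples or other genes each fit holds. The replicate numbers are shared between the groups, but same-numbered libraries did not deviate together (correlation across genes -0.00703), so they were not taken as pairs. With the number as a replicate block, 1101 genes rose and 1273 fell, 2 of the 9 fell, with ALPL added (edgeR adjusted p = 0.00114), and 5 of the other osteoblast genes fell.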

Other observations

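Relatives and neighbours of the 9 genes, chosen after their values were seen, add some contrasts. ALPP, the placental alkaline phosphatase gene and a paralog of ALPL, stood at 117 and 98.4 CPM in the controls against 277 and 250.3 CPM (log2 fold change 1.29 ± 0.12 (SE), edgeR adjusted p = 1.36e-05). It is near-identical to ALPG, 24.0 kb away, with 7 counts in each control against 13 and 17, so the split between these 2 is uncertain. Per kilobase of exon, ALPP stood at 8.54 and 11.2 times ALPL in shControl and 70.0 and 33.6 times in shGREM1. ALPL thus lay below ALPP in every library, ALPG lay below ALPL, and ALPI, the intestinal gene, had no counts.

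RUNX1 (133.9 and 130.3 CPM in the controls, 155 and 170.4 CPM in the shGREM1 libraries; log2 fold change 0.30, edgeR adjusted p = 0.0977) was close to RUNX2 per kilobase, at 8.60 and 8.37 CPM per kb in the controls and 9.98 and 10.9 in the shGREM1 libraries, and RUNX3 had 2 to 4 counts. SPP1 was the only gene of 5 in its phosphoprotein cluster (with IBSP, DMP1, MEPE and DSPP) with more than 1 count in any library. PKD2, 24.2 kb beyond SPP1, also rose (log2 fold change 0.76, edgeR adjusted p = 0.00189), and ABCG2, next to it, fell (-2.31, edgeR adjusted p = 0.0125) from 34 and 33 counts to 7 and 7. ABCG2 missed the threshold when shControl-1 (edgeR adjusted p = 0.0832) or shControl-2 (0.0601) was left out. The chains of type I collagen were far apart: COL1A1 stood at 62.5 and 58.6 CPM per kb in the controls and 77.6 and 94.1 in the shGREM1 libraries, and COL1A2 at 0.0463 and 0.0521 against 0.109 and 0.0834. COL1A2 had 8, 9, 20 and 15 counts (log2 fold change 0.96, edgeR adjusted p = 0.35). SMOC1, of the SPARC family, had 449 and 419 counts in the controls and 648 and 2366 in the shGREM1 libraries, where 1 library stood apart (edgeR adjusted p = 0.434). Of the receptor's ligands, PTHLH had 36 to 73 counts and PTH had none.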
